A study of Mus musculus with 8 samples.

Results

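The collagen and laminin genes, with the prolyl and lysyl hydroxylases that modify collagen chains, were examined in hematopoietic stem and progenitor cells of WT and Ripk3-/- mice. Genes were taken by symbol, as every Col chain, every laminin alpha, beta or gamma chain, P4ha1 to P4ha3 and Plod1 to Plod3. This gave 59 of the 29955 listed gene names, made up of 42 collagen genes, 11 laminin genes, 3 prolyl 4-hydroxylase genes and 3 lysyl hydroxylase genes. A mean value of at least 1 was reached by 55 of the 59 genes over all 8 libraries, by 57 over the LSK libraries and by 46 over the LK libraries. Each of the 59 had reads in at least 1 library, and 12 were at 0 in at least 1. A gene listed as Lamb1-1, an older name of Lamb1 in RefSeq, stood beside Lamb1 and was not taken in, so that reads of this chain may be split between both names.

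Collagens are triple helices that form fibrils, sheets or transmembrane proteins, and laminins are cross-shaped trimers of an alpha, a beta and a gamma chain. Collagen IV and laminin together build basement membranes, the thin sheets that lie under epithelium and endothelium and around sinusoids of the bone marrow. Inside the cell, prolyl 4-hydroxylases stabilize the triple helix, lysyl hydroxylases prepare the chains for cross-linking and glycosylation, and both need iron, oxygen, oxoglutarate and ascorbate. Most matrix of the marrow is made by stromal, bone-forming and endothelial cells, and hematopoietic cells meet it mainly through integrins.

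RNA was sequenced from LSK cells (Lin- Sca1+ Kit+), which hold the stem cells and multipotent progenitors, and from LK cells. The LK cells (Lin- Sca1- Kit+) hold the myeloid progenitors (MPs). Both were sorted from bone marrow of mice labelled with the strain CD57BL6/J and either the wild-type or the Ripk3 knockout genotype, with 2 libraries in each of 4 groups. The labels state that the mice were not treated, whereas the study's text states weekly low-dose X-ray fractions with collection a month after the last; the age of these mice was not given in the sources used here. Nothing states that replicates came from separate animals, so p-values measure only the spread between these samples, which may be technical.

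The deposited values are called signal here. They are reads per gene scaled to the size of each library, not divided by gene length, and were scaled separately within LSK and within LK cells. Division by the value of 1 read gave back 9782166 and 9825593 reads in WT LSK, 12657237 and 10164743 in Ripk3-/- LSK, 15680931 and 13113942 in WT LK, and 14628031 and 16280811 in Ripk3-/- LK libraries. Single reads were worth 0.0621 to 0.104 of signal, and a count of 0 allows a signal of up to 0.186 to 0.311 (3 reads, counting error only). Levels of LSK and LK cells were compared after the reads of all 8 libraries had been brought to one scale, called the common scale, in RPM.

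As a check of the labels, Ripk3 signal was 162 and 168 in WT LSK, 3.38 and 1.08 in Ripk3-/- LSK, 144 and 150 in WT LK and 16.2 and 10.6 in Ripk3-/- LK libraries, low in all 4 knockout libraries. Genotype differed together with sex. Xist signal was 402 and 413 in WT LSK and 108 and 196 in WT LK libraries, against 0 and 1.27 in Ripk3-/- LSK and 0.380 and 0.373 in Ripk3-/- LK libraries. The Y-linked gene Eif2s3y was at 0 in all 4 WT libraries and had a signal of 58.1 and 98.8 in Ripk3-/- LSK and 47.0 and 51.4 in Ripk3-/- LK libraries, so that genotype and sex cannot be told apart in any comparison below. The sorts fitted their markers. Ly6a, which encodes Sca1, averaged 166 in LSK and 1.93 in LK cells on the common scale, Kit averaged 295 and 324, and Mpo of granulocyte-monocyte progenitors averaged 4157 and 53666.

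Plod3, P4ha1 and Plod1 were the most abundant of these transcripts. Levels of different genes were compared per kilobase of the longest coding transcript, as the mean over all 8 libraries on the common scale. Plod3, which encodes a lysyl hydroxylase that also glycosylates collagen, stood first at 38.5 RPM per kilobase, followed by P4ha1, a catalytic subunit of prolyl 4-hydroxylase, at 12.1 and Plod1 at 7.76. The first collagens in this mean over both populations were Col4a1 at 2.63 and Col4a2 at 2.31, the chains of the common basement membrane collagen. P4ha3 at 2.01, Col16a1 at 1.83 and Col1a2 at 1.45 completed the first 8. The order of collagens differed by population, since Col4a1 (4.52) and Col4a2 (4.18) were first in LSK cells, whereas in LK cells Col5a1 (1.87) was above Col4a1 (0.751) and Col4a2 (0.429). In the mean over all 8 libraries, all other genes of the 59 were under 1.45. The Plod2 mean, by contrast, was 0.971 and that of P4ha2 1.02.

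**Figure D1:**
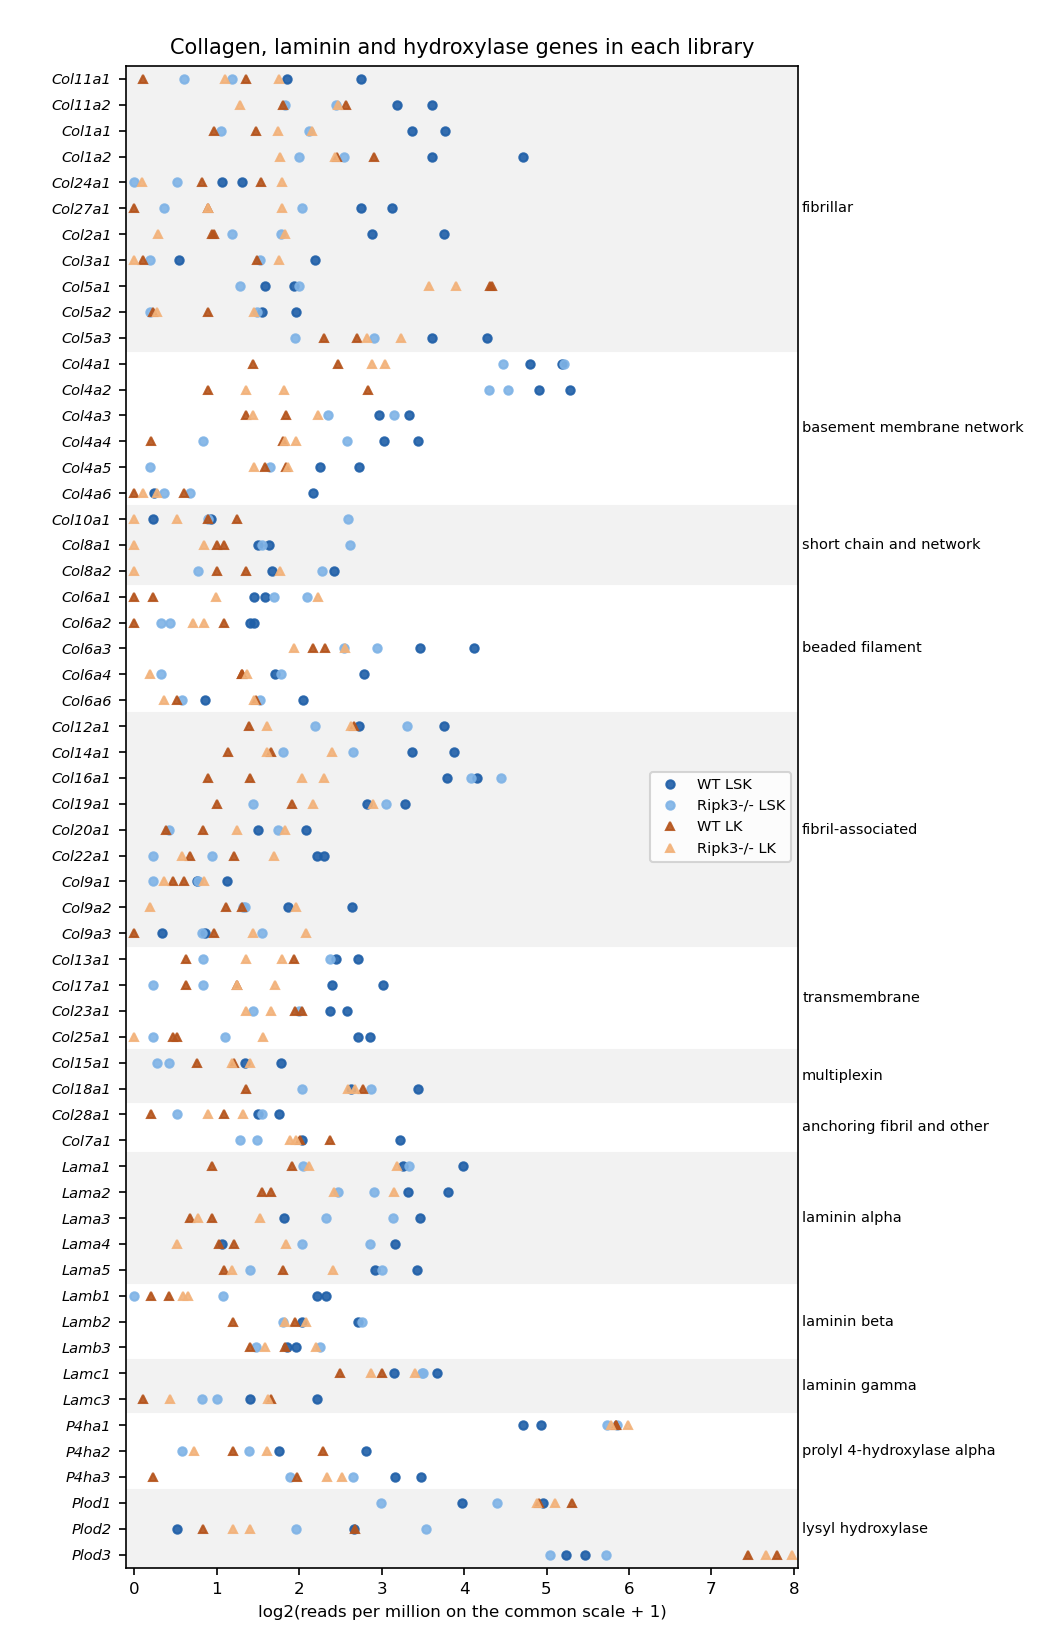
Level of 58 of the 59 genes in each of the 8 libraries, as log2 of RPM on the common scale plus 1, with genes grouped by role, circles for LSK and triangles for LK libraries, and dark and light colors for WT and Ripk3-/-. Plod3, P4ha1 and Plod1 lie to the right of nearly all collagen and laminin genes, and Col4a1, Col4a2 and Col16a1 lie further right in all LSK than in all LK libraries.

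Most collagen and laminin genes were read at low levels. The mean signal reached 5 in LSK cells for 27 of the 59 genes and in LK cells for 6, and it reached 20 for 5 genes in LSK cells (Plod3, P4ha1, Plod1, Col4a1 and Col4a2) and for 3 in LK cells (Plod3, P4ha1 and Plod1). These counts use the signal as deposited, scaled separately in each population. On the common scale the Plod1 mean in LSK cells was 17.9 RPM. The levels that follow are means on the common scale, in LSK cells first and in LK cells second, each over 4 libraries, and they compare populations and not genes, since they are not divided by length.

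Among the chains of fibrillar collagens, which form the striated fibrils of bone, cartilage and connective tissue, those of collagen I stood at 6.60 and 2.13 for Col1a1 and 11.1 and 4.45 for Col1a2. Cartilage collagen II (Col2a1) stood at 5.65 and 1.16, and Col3a1, of the thin reticular fibers that also run through the marrow, at 1.51 and 1.07. Collagens V and XI set fibril diameter. Their chains stood at 2.31 and 15.8 for Col5a1, 1.69 and 0.742 for Col5a2 and 9.75 and 5.98 for Col5a3, and at 2.53 and 1.29 for Col11a1 and 6.59 and 3.35 for Col11a2. Col5a1 was the 1 fibrillar chain called higher in LK cells, as described below. The late-described fibrillar chains stood at 0.750 and 1.30 for Col24a1 and 4.21 and 1.04 for Col27a1.

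The main chains of the basement membrane network stood at 29.9 and 4.97 for Col4a1 and 26.98 and 2.77 for Col4a2. The other chains of collagen IV, which replace them in special membranes such as that of the kidney glomerulus, stood at 6.98 and 2.38 for Col4a3, 5.68 and 2.02 for Col4a4, 2.92 and 2.24 for Col4a5 and 1.14 and 0.201 for Col4a6. Collagen VI, which forms beaded filaments around cells, stood at 2.31 and 1.21 for Col6a1, 0.999 and 0.638 for Col6a2 and 9.4995 and 3.80 for Col6a3, and its further chains at 2.72 and 1.17 for Col6a4 and 1.58 and 1.06 for Col6a6. The short-chain collagens of hypertrophic cartilage and vessel walls were low in both populations, at 1.75 and 0.666 for Col10a1, 2.74 and 0.730 for Col8a1 and 2.78 and 1.24 for Col8a2.

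Among collagens that sit on the surface of fibrils, Col16a1 stood at 16.6 and 2.37. The others stood at 7.64 and 3.55 for Col12a1, 7.71 and 2.42 for Col14a1 and 5.95 and 3.42 for Col19a1, and at 1.93 and 1.25 for Col20a1 and 2.17 and 1.16 for Col22a1. The chains of cartilage collagen IX were low, at 0.691 and 0.495 for Col9a1, 2.73 and 1.41 for Col9a2 and 0.943 and 1.47 for Col9a3, and Col9a1 was the 1 gene of the 59 whose mean signal stayed under 1 in both populations. Transmembrane collagens stood at 3.74 and 1.85 for Col13a1, 3.08 and 1.39 for Col17a1, 3.47 and 2.42 for Col23a1 and 3.28 and 0.691 for Col25a1. The multiplexins of basement membranes stood at 1.14 and 1.24 for Col15a1 and 6.11 and 4.47 for Col18a1, and the anchoring fibril chain Col7a1 and the filament-forming Col28a1 at 3.67 and 3.20 for Col7a1 and 1.64 and 0.908 for Col28a1.

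Laminin alpha chains, which carry the binding sites for cells, stood at 8.91 and 3.79 for Lama1, 8.26 and 4.07 for Lama2 and 6.10 and 1.03 for Lama3, and at 4.59 and 1.34 for Lama4 and 6.24 and 2.30 for Lama5. Lama4 and Lama5 are the alpha chains of endothelial laminins. Beta chains stood at 2.19 and 0.393 for Lamb1, 4.23 and 2.49 for Lamb2 and 2.77 and 2.45 for Lamb3, with Lamb1-1 left apart at a mean signal of 1.94 and 0.289 as deposited. Gamma chains stood at 10.05 and 6.91 for Lamc1 and 1.77 and 1.17 for Lamc3. Lamc1, the gamma chain of most laminins, had the highest laminin level per kilobase in both populations, 1.32 in LSK and 0.907 in LK cells. Among the enzymes, P4ha2 stood at 2.63 and 1.97, P4ha3 at 6.53 and 2.98, and Plod2, the lysyl hydroxylase of the telopeptides, at 4.83 and 2.28.

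The comparison of LSK with LK cells asked which of these genes differ between stem-cell-enriched cells and committed progenitors. Col4a1, Col4a2 and Col16a1 were higher in LSK cells, and Plod3 and Col5a1 higher in LK cells. Limma with Benjamini-Hochberg adjustment over all 15757 genes tested called 11 of the 56 genes of the list that were tested (19.6%), beside 34.0% of all genes tested. The list had 7 genes higher in LSK cells (12.5%, beside 13.7% of all genes) and 4 lower (7.14%, beside 20.2%). With all 8 libraries, the share of calls was thus no larger than over all genes. The median log2 difference was 0.65 over the 56 genes and 0.07 over all genes tested, and 48 of the 56 were on the side of LSK cells. This median was 1.20 in WT libraries alone, -0.02 in Ripk3-/- libraries alone and 0.11 after quantile normalization. The lean to LSK cells was thus not seen in Ripk3-/- libraries. In WT libraries alone the share of calls was larger than over all genes, with 18 of the 56 beside 3769 of all 15757 genes. Of these, 15 of the list and 1415 of all genes were higher in LSK cells. In Ripk3-/- libraries alone, 6 of the 56 were called, beside 3036 of all genes. With values scaled separately as deposited, the median over all genes moved to 0.39 and the calls over all genes turned from 2164 higher and 3187 lower in LSK cells to 3890 higher and 1473 lower, so the common scale was used for this comparison.

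Col4a2 and Col4a1 encode the chains that join in the most widespread collagen IV. Col4a2 was read at 38.1 and 29.0 in WT LSK, 18.7 and 22.2 in Ripk3-/- LSK, 6.12 and 0.861 in WT LK and 2.52 and 1.57 in Ripk3-/- LK libraries, in RPM on the common scale. Its mean was 26.98 ± 8.56 (SD, n = 4) in LSK and 2.77 ± 2.34 (SD, n = 4) in LK cells, 9.75-fold higher in LSK cells (log2 difference 3.03, SE 0.41, adjusted p = 5.27e-06 from limma). Col4a1 was read at 35.6 and 26.8, 21.2 and 36.0, 1.70 and 4.56 and 7.20 and 6.40 in the same order of groups. Its mean was 6.02-fold higher in LSK cells (log2 difference 2.46, SE 0.35, adjusted p = 8.23e-06 from limma). Every LSK library lay above every LK library for both genes.

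Both genes lie head to head on chromosome 8 of GRCm38, Col4a1 on the minus strand from 11198423 to 11312826 and Col4a2 on the plus strand from 11312805 to 11449287, with annotated starts that overlap by 22 bases. Since both were higher in LSK cells, the promoter windows of RefSeq (build GRCm38.p6, 300 bases around each start, 5′ to 3′ on the gene's own strand) are shown, with capitals for the 78 bases, chr8:11312777-11312854, that both windows hold. The window of Col4a1 is chr8:11312777-11313076 on the minus strand and that of Col4a2 is chr8:11312555-11312854 on the plus strand.
Col4a1: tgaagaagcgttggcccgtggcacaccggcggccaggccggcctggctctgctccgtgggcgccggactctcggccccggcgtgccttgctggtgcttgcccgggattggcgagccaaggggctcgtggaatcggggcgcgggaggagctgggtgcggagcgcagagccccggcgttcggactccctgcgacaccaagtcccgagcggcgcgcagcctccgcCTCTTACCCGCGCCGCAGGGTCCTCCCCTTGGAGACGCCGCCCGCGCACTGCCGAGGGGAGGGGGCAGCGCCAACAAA
Col4a2: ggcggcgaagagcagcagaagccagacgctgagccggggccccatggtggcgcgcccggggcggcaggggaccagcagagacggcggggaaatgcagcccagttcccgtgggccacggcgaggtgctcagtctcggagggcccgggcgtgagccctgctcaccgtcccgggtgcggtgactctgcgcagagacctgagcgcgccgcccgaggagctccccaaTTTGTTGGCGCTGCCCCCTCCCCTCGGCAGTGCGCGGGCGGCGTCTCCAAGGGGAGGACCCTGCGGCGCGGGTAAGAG
The capitals of 1 line are the reverse complement of the other. The GC box GGGCGG, searched on both strands, occurred 1 time in the shared bases and 3 times in the whole Col4a2 window, and CCAAT, searched on both strands, 1 time in each window and not in the shared bases.

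Of the 59 genes, 44 had a RefSeq promoter window, 48 windows in all. GGGCGG was present in 29 of the 48 (60.4%) and in 35.7% of all 32851 windows of the same length. CCAAT was present in 15 of the 48 (31.25%) and in 37.4% of all windows. Col16a1, the third collagen that was higher in LSK cells by a similar size, has a window on the plus strand at chr4:130047590-130047889 with GGGCGG on each strand and CCAAT, which are given in capitals.
Col16a1: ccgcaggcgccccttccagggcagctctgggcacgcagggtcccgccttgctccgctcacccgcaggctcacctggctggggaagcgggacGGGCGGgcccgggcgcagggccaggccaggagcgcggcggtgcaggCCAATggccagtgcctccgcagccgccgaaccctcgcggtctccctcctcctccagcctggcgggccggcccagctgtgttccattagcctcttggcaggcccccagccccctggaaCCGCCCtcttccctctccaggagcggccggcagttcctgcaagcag
These matches describe the windows only.

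Col16a1, a fibril-associated collagen, was read at 16.9 and 12.8 in WT LSK, 20.9 and 16 in Ripk3-/- LSK, 0.852 and 1.64 in WT LK and 3.10 and 3.91 in Ripk3-/- LK libraries. The mean was 16.6 ± 3.31 (SD, n = 4) in LSK and 2.37 ± 1.39 (SD, n = 4) in LK cells, 7.01-fold higher in LSK cells (log2 difference 2.47, SE 0.39, adjusted p = 3.05e-05 from limma), and the populations did not overlap. The opposite order was seen for Col5a1, the main chain of collagen V, with 2.005 and 2.82 and 1.42 and 2.99 in the WT and Ripk3-/- LSK libraries and 19.2 and 18.9 and 13.9 and 10.96 in the WT and Ripk3-/- LK libraries. Its mean was 6.82-fold higher in LK cells (log2 difference -2.33, SE 0.39, adjusted p = 6.68e-05 from limma), again with no overlap. Its partner chains did not share this order, since the log2 difference was 0.59 (SE 0.48) for Col5a2 and 0.42 (SE 0.40) for Col5a3, neither called.

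The lysyl hydroxylases Plod3 and Plod1 were higher in LK cells. Plod3 was read at 43.2 and 36.6 in WT LSK, 51.6 and 31.9 in Ripk3-/- LSK, 222 and 174 in WT LK and 201 and 251 in Ripk3-/- LK libraries. Its mean was 40.8 ± 8.57 (SD, n = 4) in LSK and 212 ± 32.8 (SD, n = 4) in LK cells, 5.19-fold higher in LK cells (log2 difference -2.36, SE 0.18, adjusted p = 8.18e-10 from limma), and it had the smallest adjusted p of the 59 genes. Plod1 was read at 30.0 and 14.7 and 20.1 and 6.93 in WT and Ripk3-/- LSK libraries, and at 38.6 and 28.9 and 33.4 and 28.6 in WT and Ripk3-/- LK libraries. The populations overlapped for Plod1, whose mean was 1.81-fold higher in LK cells (log2 difference -0.97, SE 0.31, adjusted p = 0.0193 from limma). The third lysyl hydroxylase, Plod2, was uneven between replicates, with 0.436 and 5.36 in WT LSK and 10.6 and 2.91 in Ripk3-/- LSK libraries, and was not called.

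P4ha1 was lower in LSK than in LK cells (log2 difference -0.55, SE 0.19, adjusted p = 0.0299 from limma), and this difference was seen in the WT libraries. It was read at 29.5 and 25.3 in WT LSK libraries and at 52.3 and 56.8 in Ripk3-/- LSK, 56.5 and 56.1 in WT LK and 53.8 and 62.5 in Ripk3-/- LK libraries. The WT LSK libraries thus lay below all others, which overlapped. The log2 difference between LSK and LK cells was -1.02 (adjusted p = 0.00921) in WT libraries alone and -0.09 (adjusted p = 0.881) in Ripk3-/- libraries alone. Of the other prolyl 4-hydroxylase genes, P4ha3 had 7.93 and 10.2 in WT LSK, 2.71 and 5.30 in Ripk3-/- LSK, 2.94 and 0.172 in WT LK and 4.76 and 4.06 in Ripk3-/- LK libraries and was not called (adjusted p = 0.0895).

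The other 4 genes called higher in LSK cells were a laminin chain and 3 collagen chains. Lama3, the alpha chain of epithelial laminins, was read at 2.53 and 10.002 in WT LSK, 7.83 and 4.02 in Ripk3-/- LSK, 0.929 and 0.603 in WT LK and 1.87 and 0.712 in Ripk3-/- LK libraries (log2 difference 1.71, SE 0.48, adjusted p = 0.00793 from limma). Col4a3 was read at 6.80 and 9.09, 7.91 and 4.11, 1.55 and 2.58 and 3.67 and 1.71 in the same order (log2 difference 1.24, SE 0.43, adjusted p = 0.0307 from limma). For both genes every LSK library lay above every LK library. Col2a1 was read at 6.36 and 12.5 in WT LSK libraries and at 2.42 and 1.28, 0.929 and 0.947 and 0.216 and 2.56 in Ripk3-/- LSK, WT LK and Ripk3-/- LK libraries (log2 difference 1.40, SE 0.47, adjusted p = 0.0260 from limma). Col14a1, another fibril-associated collagen, was read at 9.33 and 13.7, 2.49 and 5.30, 2.17 and 1.21 and 4.25 and 2.06 in the 4 groups (log2 difference 1.22, SE 0.44, adjusted p = 0.0340 from limma). Both were high in the WT LSK libraries only, and in Ripk3-/- libraries alone the log2 difference was 0.43 (adjusted p = 0.737) for Col2a1 and 0.23 (adjusted p = 0.860) for Col14a1. The difference between the genotypes in this contrast, the interaction tested below, was called for none of the 59 genes.

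**Figure D2:**
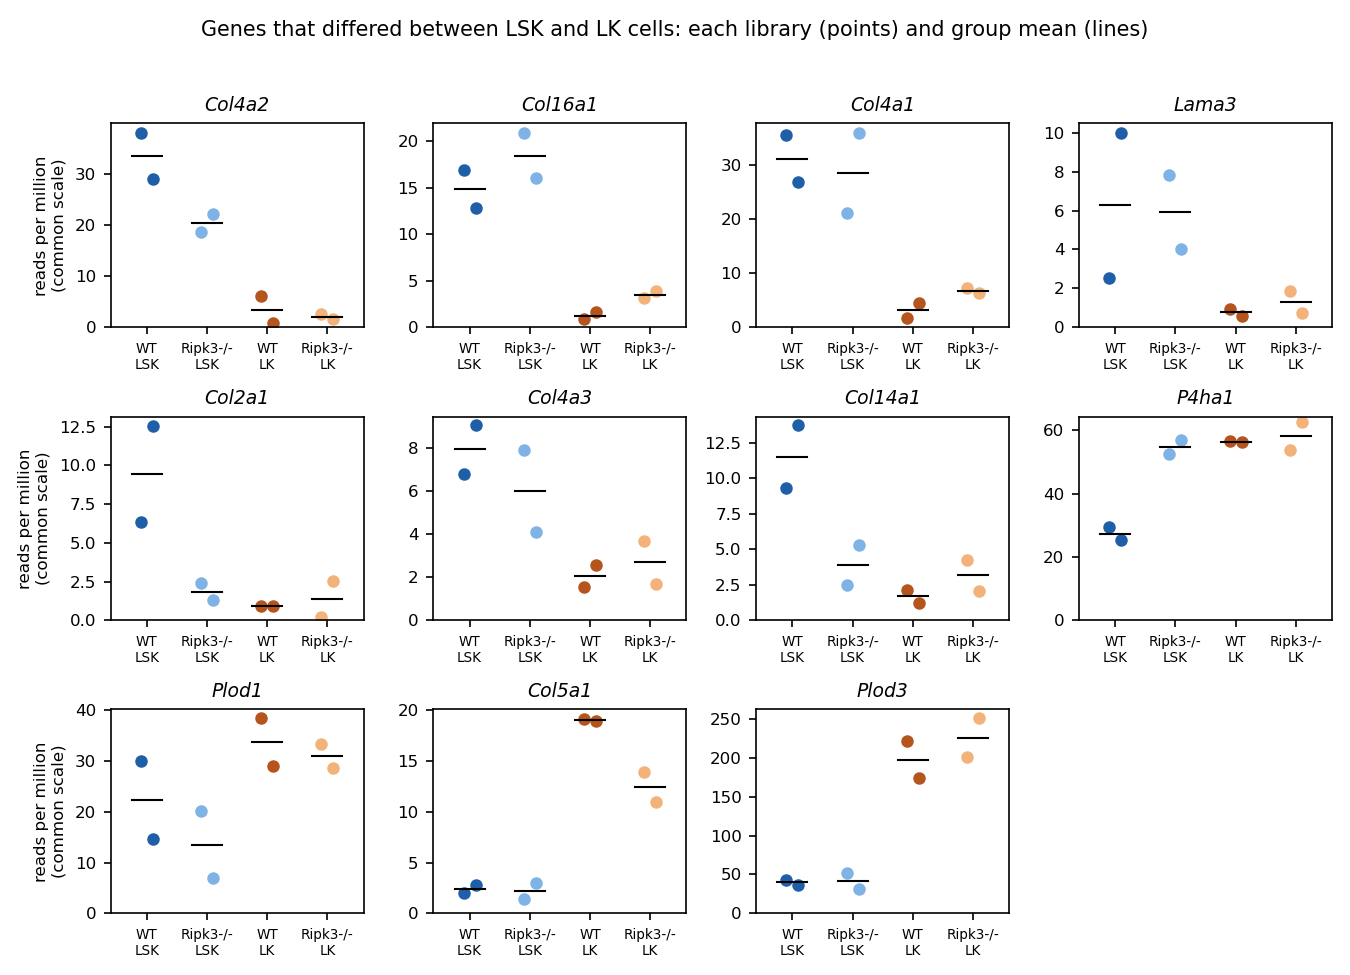
RPM on the common scale of the 11 genes that differed between LSK and LK cells, with 1 point per library and a line at the mean of each group of 2 libraries; each axis starts at 0. Col4a2, Col16a1 and Col4a1 are high in all 4 LSK libraries and Plod3 and Col5a1 in all 4 LK libraries, whereas P4ha1, Col2a1 and Col14a1 set the WT LSK libraries apart.

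The calls of Plod3, Col4a1, Col4a2, Col16a1 and Col5a1 held without each library in turn, and the other 6 did not. The Lama3 call was lost without WT LSK replicate 2 (adjusted p = 0.0558). Plod1 lost its call without WT LSK replicate 2 (0.101), Ripk3-/- LSK replicate 2 (0.119), WT LK replicate 1 (0.0843) or Ripk3-/- LK replicate 1 (0.0662). Col4a3 lost its call without WT LSK replicate 2 (0.0795), Ripk3-/- LSK replicate 1 (0.105), WT LK replicate 1 (0.103) or Ripk3-/- LK replicate 2 (0.132). Col2a1 lost its call without WT LSK replicate 2 (0.0974), Ripk3-/- LSK replicate 1 (0.0721), WT LK replicate 1 (0.0710), WT LK replicate 2 (0.0617) or Ripk3-/- LK replicate 1 (0.141). Col14a1 lost its call without WT LSK replicate 2 (0.0957), Ripk3-/- LSK replicate 2 (0.125), WT LK replicate 1 (0.0507), WT LK replicate 2 (0.0996) or Ripk3-/- LK replicate 2 (0.141). P4ha1 lost its call without WT LSK replicate 2 (0.0643), Ripk3-/- LSK replicate 1 (0.0641), WT LK replicate 1 (0.0792), WT LK replicate 2 (0.0689), Ripk3-/- LK replicate 1 (0.0520) or Ripk3-/- LK replicate 2 (0.125). The count of 11 genes moved to 6 without WT LSK replicate 2 and to 7 without WT LK replicate 1.

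The comparison of Ripk3-/- with WT LSK cells asked whether loss of Ripk3 goes with other levels of these genes in stem-cell-enriched cells. No gene of the list passed the test. Most collagen and laminin genes nevertheless had lower signal in Ripk3-/- than in WT LSK libraries, and P4ha1 had a higher signal. Limma called 0 of the 57 genes tested, beside 2.16% of all 16817 genes tested. At an unadjusted p under 0.05 there were 15 of the 57 (26.3%), 14 of them lower, beside 17.9% of all genes tested. The edgeR quasi-likelihood test also called 0 (6 at an unadjusted p under 0.05), and DESeq2 called 2, P4ha1 as higher (log2 difference 0.96, adjusted p = 0.0165) and Col1a2 as lower (log2 difference -2.25, adjusted p = 0.0241). These 2 of 57 stand beside 652 of all 16817 genes tested that DESeq2 called.

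Reads were simulated with known changes in this comparison (15781 genes tested, changed genes at 20 reads or more). There limma called 3 of 67 genes changed 2-fold and 49 of 67 changed 4-fold, so a count of 0 leaves room for 2-fold differences. The simulation used the same fixed spread for every gene, not a spread taken from these libraries. It therefore does not tell which share of 4-fold changes would be called in the list. By count and median, the list lay below the other genes. Both Ripk3-/- libraries lay below both WT libraries for 28 of the 57 genes (49.1%), beside 23.2% of all genes tested, and above both for 2 (3.51%), beside 21.4%. Those 2 were P4ha1 and Col6a1. The median log2 difference was -0.89 over the 57 genes and -0.01 over all genes tested. It was -0.53 after quantile normalization and between -0.67 and -1.09 without any 1 library. Genes of low signal as a whole lay lower in Ripk3-/- LSK libraries, since the median over all 9017 genes with a mean signal of 1 to 20 was -0.28 and both Ripk3-/- libraries lay below both WT libraries for 30.0% of these. Among the 52 genes of the list in that range the median was -0.95 and 27 lay below. In bulk libraries, fewer cells that express a gene and less RNA per cell cannot be told apart.

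Counts by role are given without a test between roles. Beside them, 50.8% of all genes tested had a lower mean signal in Ripk3-/- LSK cells, and 23.2% were lower without overlap (62.1% and 30.0% of genes with a mean signal of 1 to 20). Over all 59 genes, tested or not, all 11 fibrillar chains had a lower mean in Ripk3-/- LSK cells, and 9 of them did not overlap between genotypes, with Col3a1 and Col5a1 as the exceptions. All 6 chains of collagen IV had a lower mean, 3 without overlap (Col4a2, Col4a4 and Col4a5). The 4 transmembrane collagens were all lower without overlap. Of the 9 fibril-associated chains 7 had a lower mean, 3 without overlap, and of the 11 laminin chains 8 had a lower mean, 4 without overlap. The short-chain collagens differed, with a lower mean for 1 of 3, and Plod3, Lamb3 and Lamc1 had log2 differences of 0.03, -0.05 and 0.09.

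P4ha1 had a signal of 33.6 and 28.8 in WT LSK, 59.1 and 64.9 in Ripk3-/- LSK, 49.6 and 49.8 in WT LK and 47.4 and 54.5 in Ripk3-/- LK libraries. Its mean in LSK cells was 31.2 ± 3.37 (SD, n = 2) for WT against 62.0 ± 4.14 (SD, n = 2) for Ripk3-/- libraries, 1.99-fold apart (log2 difference 0.97, SE 0.27, adjusted p = 0.0622 from limma, unadjusted p = 0.00161). Over the alternatives the adjusted p ran from 0.0165 with DESeq2 to 0.202. The genotypes did not overlap in LSK cells, whereas they did in LK cells.

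Collagen I is the main collagen of bone. Col1a1 had a signal of 14.4 and 10.7 in WT LSK, 1.21 and 3.81 in Ripk3-/- LSK, 1.56 and 0.840 in WT LK and 3.04 and 2.05 in Ripk3-/- LK libraries, with a log2 difference in LSK cells of -2.04 (SE 0.63, adjusted p = 0.0958 from limma). Its partner chain Col1a2 had 28.7 and 12.7 in WT LSK, 5.47 and 3.42 in Ripk3-/- LSK, 5.71 and 3.97 in WT LK and 3.87 and 2.11 in Ripk3-/- LK libraries (log2 difference -1.92, SE 0.59, adjusted p = 0.0929 from limma). WT LSK replicate 1 was the highest LSK library for both chains, and the adjusted p of Col1a2 ran from 0.0241 to 0.333 over the alternatives. Cartilage collagen showed the same order in LSK cells. Col2a1 had a signal of 7.25 and 14.3 in WT LSK, 2.73 and 1.47 in Ripk3-/- LSK, 0.815 and 0.840 in WT LK and 0.190 and 2.24 in Ripk3-/- LK libraries (log2 difference -1.89, SE 0.66, adjusted p = 0.141 from limma). Col11a2, found in the same fibrils, had 12.8 and 9.22 in WT LSK, 2.89 and 5.09 in Ripk3-/- LSK, 2.17 and 4.35 in WT LK and 1.27 and 3.97 in Ripk3-/- LK libraries (log2 difference -1.29, SE 0.62, adjusted p = 0.282 from limma). Col5a3 had a signal of 21.1 and 12.7 in WT LSK, 3.22 and 7.43 in Ripk3-/- LSK, 3.46 and 4.88 in WT LK and 7.42 and 5.28 in Ripk3-/- LK libraries (log2 difference -1.55, SE 0.56, adjusted p = 0.154 from limma). For each of these 5 fibrillar chains the genotypes did not overlap in LSK cells.

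Among the other roles, a mean LSK signal of 5 or more, a log2 difference of 1 or more in size and no overlap were also found for Col4a4, Col6a3, Col14a1 and P4ha3. The basement membrane chain Col4a4 had 8.14 and 11.2 in WT LSK, 0.884 and 5.67 in Ripk3-/- LSK, 0.136 and 2.21 in WT LK and 2.54 and 2.24 in Ripk3-/- LK libraries (log2 difference -1.57, SE 0.70, adjusted p = 0.245 from limma). Col6a3 had 11.4 and 18.8 in WT LSK, 5.47 and 7.63 in Ripk3-/- LSK, 3.06 and 3.51 in WT LK and 4.31 and 2.48 in Ripk3-/- LK libraries (log2 difference -1.07, SE 0.57, adjusted p = 0.328 from limma). In both, Ripk3-/- LSK replicate 1 was the lowest LSK library. Col14a1 had 10.6 and 15.6 in WT LSK, 2.81 and 6.06 in Ripk3-/- LSK, 1.90 and 1.07 in WT LK and 3.74 and 1.80 in Ripk3-/- LK libraries (log2 difference -1.42, SE 0.62, adjusted p = 0.232 from limma). P4ha3 had 9.04 and 11.6 in WT LSK, 3.05 and 6.06 in Ripk3-/- LSK, 2.58 and 0.153 in WT LK and 4.19 and 3.54 in Ripk3-/- LK libraries (log2 difference -1.07, SE 0.65, adjusted p = 0.394 from limma). None was called by limma, edgeR or DESeq2.

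The largest log2 differences were those of the transmembrane collagens Col17a1, of epithelial hemidesmosomes, and Col25a1, at low signal. Col17a1 had a signal of 4.87 and 8.08 in WT LSK against 0.884 and 0.196 in Ripk3-/- LSK libraries (log2 difference -2.28, SE 0.62, adjusted p = 0.0589 from limma), and Col25a1 had 7.15 and 6.32 in WT LSK against 1.29 and 0.196 in Ripk3-/- LSK libraries (log2 difference -2.22, SE 0.65, adjusted p = 0.0799 from limma). These 2 were singled out after their values were seen. In contrast, Col4a1 and Col16a1, which were high in LSK cells, overlapped between genotypes, with log2 differences of -0.16 (95% confidence interval -1.18 to 0.85) and 0.29 (-0.84 to 1.42).

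**Figure D3:**
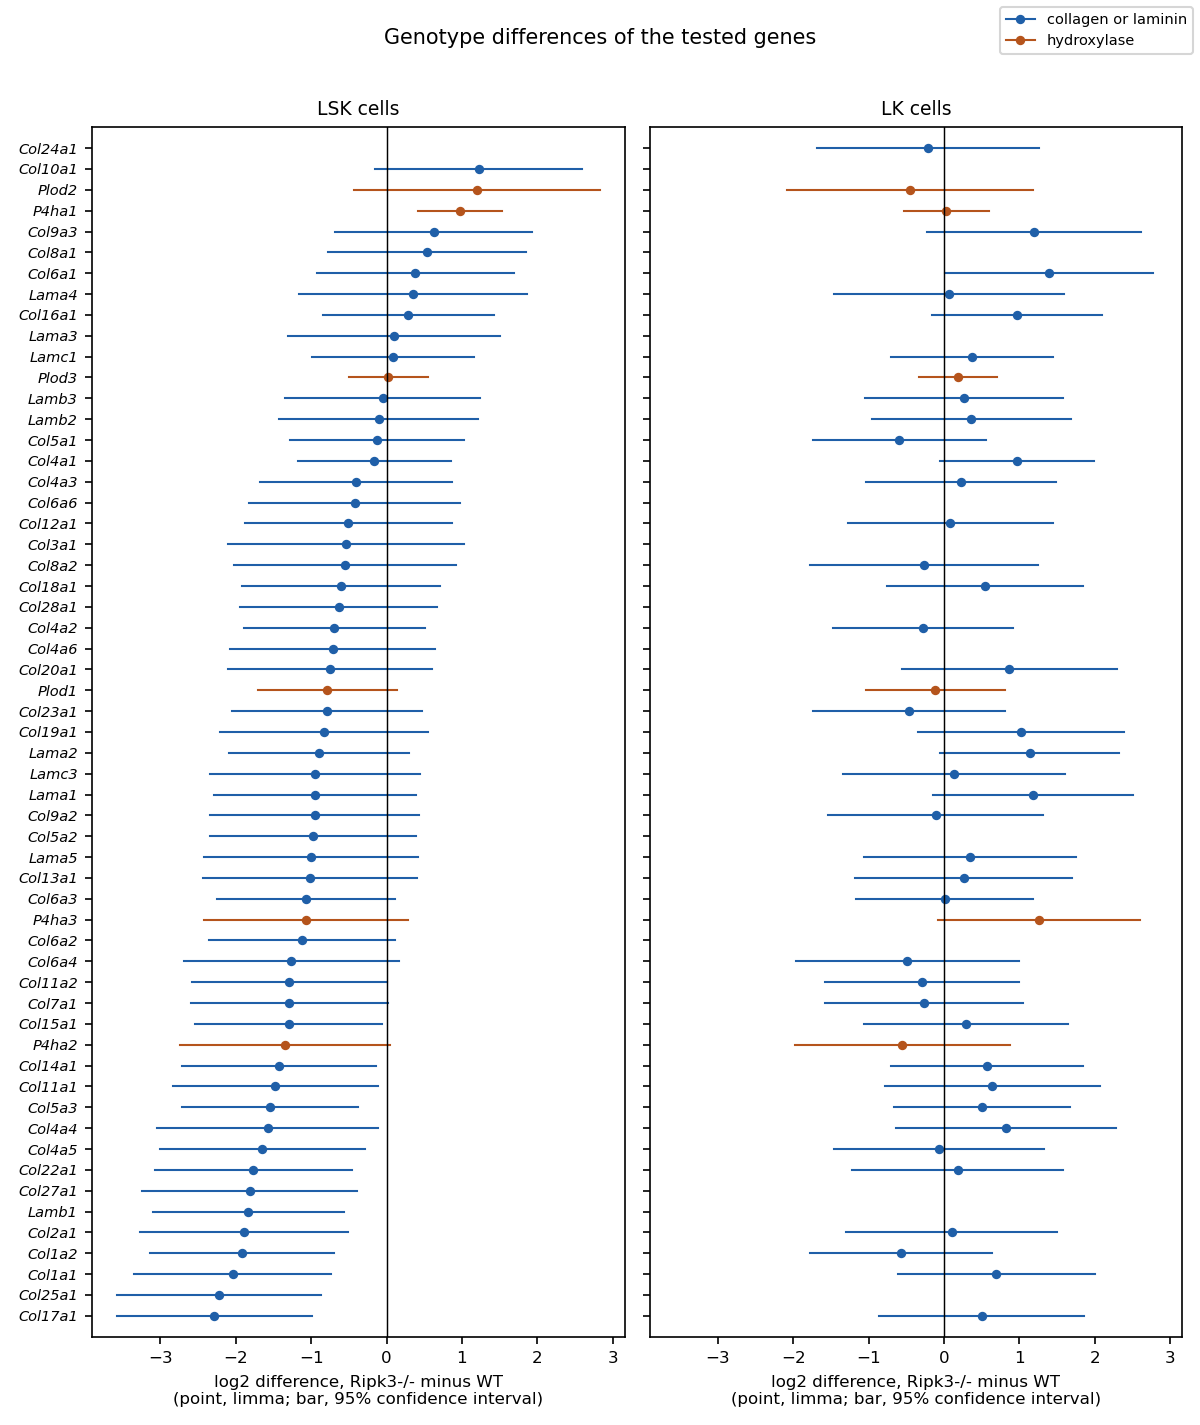
Log2 difference of Ripk3-/- minus WT from limma, with its 95% confidence interval, for 57 of the 58 genes tested in LSK cells (left) or in LK cells (right), sorted by the LSK value; genes under the filter in a population have no bar there. Most points lie left of 0 in LSK cells and right of 0 in LK cells, and no gene passed the test in either.

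Summed over the 53 collagen and laminin genes, the level in RPM on the common scale was 395 and 333 in WT LSK, 176 and 230 in Ripk3-/- LSK, 101 and 119 in WT LK and 170 and 112 in Ripk3-/- LK libraries. The WT LSK libraries were the highest, and Ripk3-/- LK replicate 1 was the highest LK library. The sum of the 6 hydroxylase genes was 117 and 94.5, 138 and 105, 329 and 261 and 295 and 350 in the same order, which separates the populations and not the genotypes. A set of genes that these cells are not known to use was also highest in the WT LSK libraries. The 1094 olfactory receptor genes, a list chosen after the data were seen, summed to 320 and 233 in WT LSK, 113 and 221 in Ripk3-/- LSK, 58.5 and 100 in WT LK and 196 and 81.2 in Ripk3-/- LK libraries. The number of genes with reads was 19999 and 20145 in WT LSK, 19095 and 18804 in Ripk3-/- LSK, 18254 and 19046 in WT LK and 20358 and 18287 in Ripk3-/- LK libraries. The part that such low reads across the genome have in the genotype differences was not tested.

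**Figure D4:**
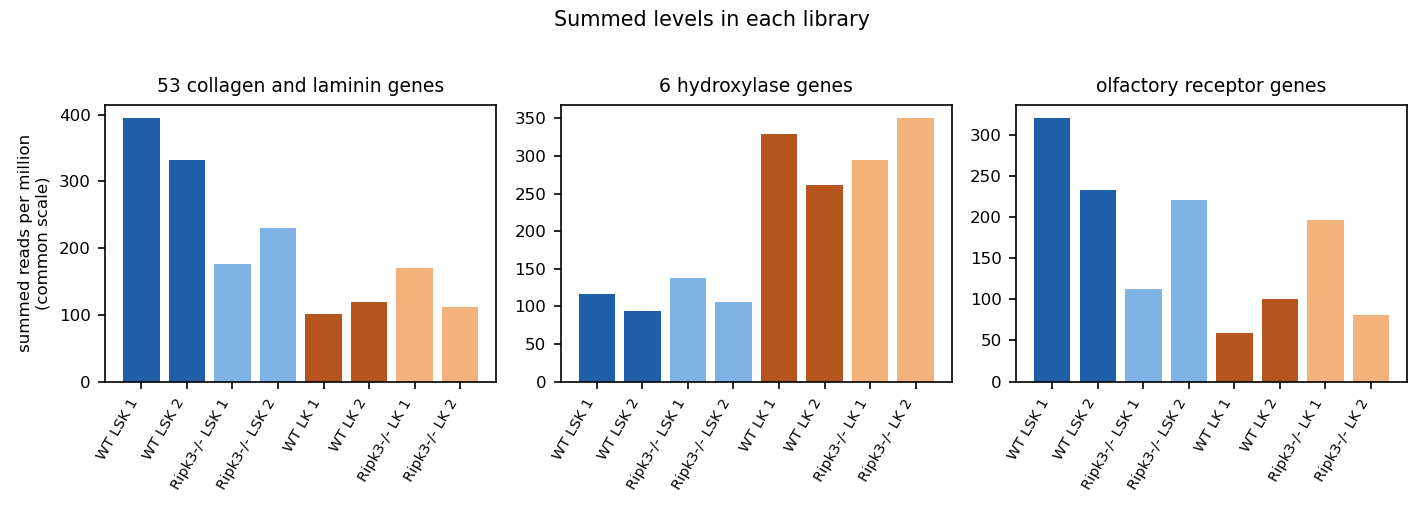
Summed RPM on the common scale in each library for the 53 collagen and laminin genes, the 6 hydroxylase genes and the 1094 olfactory receptor genes, with bars from 0. Collagen and laminin genes and olfactory receptor genes are both highest in the WT LSK libraries, whereas the hydroxylases are higher in all LK than in all LSK libraries.

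In LK cells the comparison of genotypes found no call. Limma called 0 of the 46 genes tested, beside 0.473% of all 13949 genes tested. Only 1 gene, Col6a1, was at an unadjusted p under 0.05 (2.17%), beside 6.56% of all genes tested. The edgeR quasi-likelihood test and DESeq2 called 0, with 4 and 5 at an unadjusted p under 0.05. The median log2 difference was 0.24 over the 46 genes and 0.01 over all genes, with 32 of the 46 positive. It was between 0.12 (without WT LK replicate 1) and 0.58 (without Ripk3-/- LK replicate 2) when 1 library was left out. Both Ripk3-/- libraries lay above both WT libraries for 12 genes (26.1%), beside 20.1% of all genes, and below for 4 (8.70%), beside 19.9%. Over all 6932 genes with a mean LK signal of 1 to 20, these shares were 21.5% and 14.4%, and the median log2 difference was 0.11. The list had 43 genes in that range, with a median of 0.26, 12 above and 4 below. Col6a1 had a signal of 0 and 0.153 in WT LK and 3.23 and 0.869 in Ripk3-/- LK libraries (log2 difference 1.39, SE 0.66, adjusted p = 0.747 from limma). The hydroxylases with the highest levels were close between genotypes, with log2 differences of 0.19 for Plod3 (95% confidence interval -0.33 to 0.70) and 0.03 for P4ha1 (-0.53 to 0.59). No gene of the 46 met the limits on size, level and overlap used in LSK cells.

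The interaction asked whether the genotype difference itself differs between LSK and LK cells. Limma called 0 of the 55 genes tested, beside 0.358% of all 15901 genes tested, with 15 of the 55 at an unadjusted p under 0.05, 14 of them with the lower value in LSK cells, beside 10.1% of all genes. This number fell without each library in turn, and most without Ripk3-/- LK replicate 1, to a share under that 10.1%. The edgeR quasi-likelihood test and DESeq2 also called 0, with 7 and 12 at an unadjusted p under 0.05. The median was -1.06 over the 55 genes and 0.00 over all genes. Over the genes of the list it was -0.67 after quantile normalization and between -0.84 and -1.33 without any 1 library. The smallest unadjusted p were those of Col17a1, at -2.79 (adjusted p = 0.280 from limma), and Col1a1, at -2.73 (adjusted p = 0.280 from limma). For P4ha1 the interaction was 0.94 (adjusted p = 0.418 from limma).

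Other genes that serve collagen and laminin were read from 7 lists, written with earlier results of these data known. Of 10 genes tested for collagen chaperones, glycosylation and secretion, 7 were higher in LK cells and 0 in LSK cells. For this and the counts of the other lists, the shares over all genes tested were 20.2% and 13.7%. P4hb, the beta subunit that joins P4ha chains and is also a general disulfide isomerase, was the most abundant per kilobase, at a mean of 580 in LSK and 2299 in LK cells on the common scale, a log2 difference of -1.99 (SE 0.11, adjusted p = 3.22e-12). Pdia3, another disulfide isomerase, stood at 619 in LSK and 1787 in LK cells, a log2 difference of -1.54 (SE 0.11, adjusted p = 2.00e-10). Sec24d of the COPII coat, with -1.55 (SE 0.22, adjusted p = 8.97e-06), and Ctage5, a partner of procollagen export, with -1.03 (SE 0.17, adjusted p = 6.30e-05), also held without each library in turn. Mia3, Sec23a and the collagen galactosyltransferase Glt25d1 were higher in LK cells by log2 differences of -0.80, -0.90 and -0.45 (adjusted p = 0.0152, 0.0472 and 0.0391 from limma). The collagen-specific chaperone Serpinh1 averaged 1.76 in LSK and 0.860 in LK cells and was not called.

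Of 5 genes tested of the prolyl 3-hydroxylation complex, Leprel2 was higher in LSK cells, with a log2 difference of 1.66 (SE 0.42, adjusted p = 0.00361), and Lepre1 lower, with -1.07 (SE 0.34, adjusted p = 0.0174). Ppib and Crtap, the most abundant per kilobase of that list, were not called. Of 7 genes tested for procollagen processing and cross-linking, Pcolce2, an enhancer of propeptide removal, was higher in LSK cells, with 1.35 (SE 0.46, adjusted p = 0.0258). Adamts3 and Loxl3 were the most abundant per kilobase there and were not called, and Lox itself was at a mean of 0.154 in LSK and 0 in LK cells. Of 12 basement membrane partners tested, 0 were called between populations; Sparc and Fbln1 were the most abundant per kilobase.

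Of 16 receptors of collagen and laminin tested, 4 were higher in LSK cells and 2 in LK cells. The laminin receptor Bcam, with a log2 difference of 2.51 (SE 0.46, adjusted p = 1.94e-04), the syndecans Sdc4, with 2.18 (SE 0.40, adjusted p = 1.90e-04), and Sdc1, with 1.88 (SE 0.40, adjusted p = 7.43e-04), and the laminin-binding integrin chain Itgb4, with 1.23 (SE 0.41, adjusted p = 0.0247), were higher in LSK cells. Itgb1, the beta chain shared by most collagen and laminin integrins, and the inhibitory collagen receptor Lair1 were the most abundant per kilobase and were higher in LK cells, with -0.63 (SE 0.14, adjusted p = 0.00139) and -0.61 (SE 0.17, adjusted p = 0.00861). Of 11 matrix proteases and inhibitors tested, Mmp2, which digests collagen IV, was higher in LSK cells, with 3.01 (SE 0.40, adjusted p = 3.96e-06), as were the inhibitor Timp2, with 1.17 (SE 0.32, adjusted p = 0.00739), Reck, with 1.07 (SE 0.39, adjusted p = 0.0386), and Mmp9, with 1.30 (SE 0.49, adjusted p = 0.0455). Mmp14 was higher in LK cells, with -1.81 (SE 0.38, adjusted p = 7.13e-04). Of 8 genes on the ascorbate and hypoxia side of the hydroxylases, Egln2, with -0.65 (SE 0.18, adjusted p = 0.00681), and Hif1a, with -0.67 (SE 0.20, adjusted p = 0.0134), were higher in LK cells; Egln2 and Vhl were the most abundant per kilobase. All p are from limma.

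Over these lists 10 of 69 genes tested (14.5%) were higher in LSK and 13 (18.8%) in LK cells, close to the 13.7% and 20.2% of all genes tested, and 12 of the 23 calls were lost without 1 of the libraries. Over all alternatives run, 14 of the 23 calls were lost in at least 1. Leprel2 lost its call in WT libraries alone (adjusted p = 0.123 from limma). Itgb1 lost its call after quantile normalization, in Ripk3-/- libraries alone and with values as deposited (adjusted p up to 0.337 from limma). Between genotypes, 1 of 71 genes tested of the lists was called in LSK cells (1.41%, beside 2.16% of all genes), 0 of 56 in LK cells and 0 of 69 in the interaction, so the count did not exceed the share over all genes. That gene was Hspg2, which encodes perlecan, the large heparan sulfate proteoglycan of basement membranes. Its signal was 13.1 and 18.9 in WT LSK, 2.73 and 1.96 in Ripk3-/- LSK, 4.62 and 3.51 in WT LK and 5.20 and 3.42 in Ripk3-/- LK libraries. The log2 difference in LSK cells was -2.33 (SE 0.57, adjusted p = 0.0353) from limma, and the adjusted p ran from 0.00203 to 0.159 over the alternatives. The call was lost without 7 of the 8 libraries, at adjusted p of 0.0536 to 0.159, and held without WT LK replicate 2. By list, the median log2 difference in LSK cells was -0.95 for basement membrane partners, -1.41 for procollagen processing and -0.42 for proteases and inhibitors. It was 0.26 for chaperones and secretion, -0.07 for receptors, 0.07 for 3-hydroxylation and 0.28 for the ascorbate and hypoxia side. Over the 71 genes tested of the lists it was -0.25. The median was -0.01 over all genes tested and -0.28 over those with a mean signal of 1 to 20.

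Markers of the cells that usually make these proteins were read beside them, in RPM on the common scale. The 10 mesenchymal stroma markers summed to 61.7 and 74.3 in WT LSK, 78.0 and 55.0 in Ripk3-/- LSK, 27.6 and 35.4 in WT LK and 32.9 and 38.2 in Ripk3-/- LK libraries. The gene with the largest share of these reads was Bgn in LSK cells (23.9) and Pdgfrb in LK cells (22.7), and Cxcl12 averaged 9.82 and 1.23. Lum was at 0 in all 4 Ripk3-/- libraries and at a mean of 0.0673 in LSK cells, Adipoq was at 1.57 and 1.55 in WT LSK libraries and at 0 in both Ripk3-/- LSK libraries, and Ebf3 averaged 0.346. Of the 10 markers, 7 had a lower mean in Ripk3-/- LSK cells, 4 of them without overlap. The shares over all genes tested were 50.8% and 23.2%. Pdgfra was read at 8.37 and 6.55 in WT LSK against 3.35 and 4.45 in Ripk3-/- LSK libraries. Lepr was read at 8.54 and 5.36 against 5.13 and 3.94. Postn had the opposite order, with 1.74 and 0.455 in WT LSK against 5.63 and 7.10 in Ripk3-/- LSK libraries (log2 difference 1.94, adjusted p = 0.118 from limma). Over the 7 markers tested the median log2 difference was 0.02. Called higher in LSK than in LK cells were 3 of 7 stroma markers tested (Cxcl12, Bgn and Postn), and 0 were called between genotypes. For this and the marker counts that follow, the shares over all genes tested were 13.7% higher and 20.2% lower in LSK than in LK cells, 2.16% between genotypes in LSK and 0.473% in LK cells.

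The 7 osteoblast markers summed to 87.2 and 85.0, 93.0 and 106, 25.6 and 35.1 and 36.2 and 33.0 in the same order of groups, nearly all of it from Runx2 (85.9 in LSK and 30.1 in LK cells), which blood progenitors express too. Bglap, Bglap2 and Sp7 averaged 0.851, 0.0860 and 0.465 in LSK cells. Ibsp was read at 4.10 and 5.001 in WT LSK against 1.35 and 0.941 in Ripk3-/- LSK libraries, and Runx2 at 75.5 and 76.8 against 88.3 and 103, so that these markers did not share a direction (log2 differences -1.43 and 0.32, with -1.04 for Alpl and 0.21 for Dmp1). The 5 chondrocyte markers summed to 26.6 and 12.7, 8.97 and 9.497, 5.11 and 6.63 and 5.48 and 3.77, with the largest single share from Matn3, which averaged 6.29 in LSK cells. This small sum was highest in the WT LSK libraries. Of the 5 chondrocyte markers, 5 had a lower mean in Ripk3-/- LSK cells, 3 of them without overlap. Of the 7 osteoblast markers, 4 had a lower mean, 1 without overlap. The shares over all genes tested were 50.8% and 23.2%. Over the 4 markers tested of each list, the median log2 difference was -0.80 for chondrocyte and -0.41 for osteoblast markers. Ibsp, Runx2 and Matn3 were called higher in LSK than in LK cells (2 of 3 and 1 of 4 tested), and 0 osteoblast and 0 chondrocyte markers were called between genotypes.

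The 8 endothelial markers summed to 203 and 174, 236 and 189, 117 and 117 and 123.3 and 183, mostly from Tie1, Pecam1 and Emcn, which hematopoietic stem cells also express, while Cdh5 averaged 1.86 and Stab2 1.51 in LSK cells. The 5 smooth muscle and pericyte markers summed to 17.3 and 14.7, 11.7 and 6.42, 5.34 and 9.21 and 15.1 and 6.19, with the largest single share from Cspg4 (4.46 in LSK cells), and Acta2 averaged 1.12 in LSK cells. Between populations 3 of 7 endothelial markers tested were called higher in LSK cells (Kdr, Emcn and Tie1) and 1 lower (Pecam1), and 0 of 5 smooth muscle markers were called. Between genotypes 0 of either list were called. A lower mean in Ripk3-/- LSK cells was seen for 4 of 8 endothelial and 4 of 5 smooth muscle and pericyte markers, 1 of each list without overlap. The shares over all genes tested were 50.8% and 23.2%. The median log2 difference was -0.02 over the 8 endothelial and -0.65 over the 5 smooth muscle and pericyte markers. The sort for lineage-negative Kit+ cells would leave out most stromal and endothelial cells, and whether remaining ones had a part in the levels of collagen and laminin genes was not tested.

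Blood lineage lists followed the sorts. On the common scale, macrophage markers (7 listed) summed to a mean of 80.5 in LSK and 307 in LK cells, mast cell and basophil markers (6) to 211 and 375, and markers removed by the lineage sort (4 listed) to 36.1 and 63.1. The HSPC and sort list (10) summed to 2861 and 1282, with 7 of 10 genes called higher in LSK cells, and the myeloid progenitor list (7) to 6474 and 72913, with 7 of 7 called lower. Called between LSK and LK cells were 1 higher and 4 lower of 7 macrophage markers, 1 higher and 4 lower of 6 mast cell and basophil markers, and 1 higher and 1 lower of 4 lineage markers. Between genotypes, 2 genes of these blood lists were called in LSK cells and 0 in LK cells. Flt3, a receptor of multipotent progenitors, was higher in Ripk3-/- LSK libraries (log2 difference 0.78, adjusted p = 0.0298 from limma), and Gata1, of erythroid and megakaryocyte progenitors, lower (log2 difference -1.32, adjusted p = 0.0128 from limma). The HSPC and sort list summed to 2370 and 2322 in WT LSK against 3522 and 3231 in Ripk3-/- LSK libraries. The myeloid progenitor list summed to 6877 and 7716 against 6377 and 4927. Of its 7 genes, 6 had a lower mean in Ripk3-/- LSK cells, 5 without overlap.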

How the data were processed

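RNA of sorted LSK and LK cells was sequenced with a stranded mRNA kit. The submitters' processing notes name TopHat and mm9, without versions. The signal values that the authors deposited are headed FPKM, but each is a multiple of the value of 1 read, and they equal TMM-scaled CPM computed within each population. Limma 3.58.1 (trend) was fitted to log2(signal + 1) with 4 group means, after a filter of mean signal of at least 1; differences are on that scale, which understates changes of low genes. For LSK against LK, reads were scaled by TMM over 8 libraries (edgeR 4.0.16). Tests were two-sided and Benjamini-Hochberg adjusted over all genes tested, and called means adjusted p under 0.05. The limma and edgeR fits were tested on simulated data. Gene positions and lengths came from GENCODE (GRCm38), in which all 59 symbols were found.

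Genes with every library's value were those called, those with a log2 genotype difference of at least 1, no overlap and mean of at least 5, and the 8 highest per kilobase, though 1 gene enters counts and sums only and is not described; listed pathway genes were named when called or among the 2 most abundant of a list. The members and lists were chosen with earlier results of these data known. Alternatives were a pseudocount of 0.1, no filter, a mean of at least 5, edgeR's quasi-likelihood test and DESeq2 1.42.0 on recovered reads, a replicate block, quantile normalization, each population or genotype alone, deposited scaling, and leaving out each library.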

Additional observations from a re-analysis of the deposited data

How the results depend on the processing

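Between LSK and LK cells, 11 genes of the list were called. The count was 6 of 59 with no filter on low values, beside 4104 of all 24365 genes tested. It was 7 with edgeR's quasi-likelihood test (4569 of 15757 genes) and 6 after quantile normalization (3693 of 15757). In WT libraries alone it was 18 of 56, beside 3769 of 15757 genes, with 15 beside 1415 higher in LSK cells. In Ripk3-/- libraries alone it was 6, beside 3036 of 15757 genes. With the values as deposited it was 21 of 55, beside 5363 of 15901 genes. The causes were not tested, apart from the separate scaling of the populations in the last. The count stayed within 1.5 times of 11 with a pseudocount of 0.1 (9 of 56, beside 5009 of 15757 genes). The same held for a mean of at least 5 (9 of 16, beside 4809 of 10700) and for DESeq2 (13 of 56, beside 5336 of 15757). Leaving out each library gave 6 to 14. Plod3, Col4a1, Col4a2, Col16a1 and Col5a1 were called under all 19 alternatives run, and the other 6 kept their direction and lost the call under some. A pairing of libraries by replicate number was not seen. Replicate differences correlated across genes at -0.01 between WT and Ripk3-/- LSK and -0.09 between WT and Ripk3-/- LK. The correlation was -0.02 between WT LSK and WT LK and -0.14 between Ripk3-/- LSK and Ripk3-/- LK. Such correlations cannot show whether libraries of the same number came from the same animals. With a replicate block the count was 7, and it was 0 in each genotype contrast and in the interaction, as without the block. The pairing of Ripk3-/- libraries crossed between LSK and LK, an alternative chosen after seeing the data, gave 8.

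In the genotype contrast in LSK cells the count was 0 under all alternatives except DESeq2, which gave 2; the cause was not tested. In LK cells and in the interaction it was 0 under all alternatives. Leaving out each library gave 0 to 0 in these 3 contrasts; the library left alone in its group is assumed to vary like the others. Over all genes, the 363 calls in LSK cells became 652 with DESeq2, 198 without a filter, 237 with edgeR, 195 in LSK libraries alone and 99 to 262 without 1 library. The 66 calls in LK cells became 170, 9, 60, 125 and 13 to 101 in the same order, and 39 after quantile normalization. The 57 calls of the interaction became 169 with DESeq2, 3 without a filter, and 17 to 90 without 1 library. In LSK cells, 30 of the 57 tested had a mean signal under 5.

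Of the listed pathway genes called between LSK and LK cells, 12 lost the call (adjusted p in brackets) when 1 library was left out. Lepre1 lost its call without WT LSK replicate 1 (0.0716), Ripk3-/- LSK replicate 2 (0.114), WT LK replicate 1 (0.0892) or Ripk3-/- LK replicate 2 (0.103). Glt25d1 lost its call without WT LSK replicate 2 (0.0973), Ripk3-/- LSK replicate 2 (0.0909), WT LK replicate 1 (0.198) or Ripk3-/- LK replicate 2 (0.192). Mia3 lost its call without WT LSK replicate 2 (0.0679), WT LK replicate 2 (0.0859) or Ripk3-/- LK replicate 2 (0.0826). Sec23a lost its call without WT LSK replicate 2 (0.291), Ripk3-/- LSK replicate 2 (0.247), WT LK replicate 1 (0.240), Ripk3-/- LK replicate 1 (0.139) or Ripk3-/- LK replicate 2 (0.0788). Pcolce2 lost its call without WT LSK replicate 1 (0.0699), Ripk3-/- LSK replicate 2 (0.0782), WT LK replicate 1 (0.123) or Ripk3-/- LK replicate 2 (0.132). Itgb4 lost its call without WT LSK replicate 1 (0.0562), Ripk3-/- LSK replicate 2 (0.110), WT LK replicate 2 (0.0908) or Ripk3-/- LK replicate 2 (0.101). Lair1 lost its call without Ripk3-/- LK replicate 2 (0.0596). Mmp9 lost its call without WT LSK replicate 1 (0.216), Ripk3-/- LSK replicate 1 (0.0581), Ripk3-/- LSK replicate 2 (0.112), WT LK replicate 1 (0.108), WT LK replicate 2 (0.0817) or Ripk3-/- LK replicate 1 (0.206). Timp2 lost its call without WT LK replicate 2 (0.0563). Reck lost its call without WT LSK replicate 2 (0.158), Ripk3-/- LSK replicate 1 (0.0603), Ripk3-/- LSK replicate 2 (0.0887), WT LK replicate 1 (0.115), Ripk3-/- LK replicate 1 (0.102) or Ripk3-/- LK replicate 2 (0.0724). Egln2 lost its call without WT LK replicate 1 (0.0620). Hif1a lost its call without Ripk3-/- LSK replicate 1 (0.0586), WT LK replicate 2 (0.0625) or Ripk3-/- LK replicate 1 (0.0657).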

Other observations

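Several of the 59 genes are neighbors, and the pairs of collagen IV are arranged head to head. Col4a3 and Col4a4 lie on chromosome 1, 71 bases apart, and had log2 differences between LSK and LK cells of 1.24 and 1.02 (adjusted p = 0.0307 and 0.117 from limma). Col4a5 and Col4a6 lie on chromosome X, 1308 bases apart, and their levels per kilobase on the common scale in LSK cells were 0.446 and 0.171. For Col4a1 and Col4a2 these levels were 4.52 and 4.18.

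The collagen and laminin genes are long and finely split. Their median span in GENCODE was 114 kb with 48 exons in the longest coding transcript, beside 32.9 kb and 17.5 exons for the 6 hydroxylase genes and 19.2 kb and 7 exons for the 20647 protein-coding genes matched. A longer transcript gives more reads at the same number of molecules.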
